A study of Homo sapiens with 6 samples.

Results

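The genes examined were those of 2 families of nuclear RNA-binding proteins that steer pre-mRNA splicing, the SR proteins and the hnRNPs, in MDA-MB-231 breast cancer cells. Members were fixed by symbol: 14 genes of the SR family (SRSF1 to SRSF12 with the SR-like genes TRA2A and TRA2B) and 20 genes of the hnRNP family (HNRNPA0 to HNRNPUL2), 34 of the 27451 gene rows of the table. All 34 were listed, each in 1 row. With genes kept where their mean over the 6 libraries reached 1 TPM, 13 SR and 20 hnRNP genes were among the 12294 genes tested. SRSF12 was the exception, listed at 0 in every library but H182 replicate 2, at 0.02 TPM.

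Cells of this established line, which lacks estrogen and progesterone receptors, received H182 at 2 µM for 2 h (3 libraries) or the vehicle DMSO (3 libraries). The series title places H182 among azetidine-based inhibitors of the transcription factor STAT3. Poly-A RNA was sequenced, and values are TPM, a gene's share of its library's transcripts after division by their length. Whether replicates were grown separately is not stated, so p-values reflect only how much these libraries vary, which can be technical.

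SR proteins carry RNA recognition motifs and a tail rich in arginine and serine. They bind exons and help U1 and U2 snRNPs to find the splice sites. The hnRNPs coat nascent transcripts, and many of them counter SR proteins by keeping exons out, besides acting in mRNA export, stability and translation. Many genes of both families limit their own output by splicing in a poison exon, which sends the transcript to nonsense-mediated decay. Gene-level TPM adds up all transcripts of a gene, so productive and poison-exon forms could not be separated here.

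In TPM, most of these genes took a modestly smaller share of the transcripts in H182-treated cells, with 21 of the 33 tested called lower, and with median-of-ratios scaling 10 of the 33 were. Of the 20 hnRNP genes, 15 fell in TPM and none rose, and HNRNPDL was lowest at 78.3% of its DMSO level. Of the 13 tested SR genes, 6 fell and 1 rose: SRSF2 was lowest at 73.8% of its DMSO level, and TRA2A reached 120% of it. No member changed by 2-fold. In TPM, lower calls made up 18.7% of all tested genes and higher calls 5.3%. With median-of-ratios scaling they made up 6.74% and 7.9%. The counts in the families are to be read against the background of the same scaling.

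The members are abundant, and abundant genes were called lower more often. Among the 7493 genes whose mean reached 15 TPM, a level that every tested member reached, 25.7% were called lower. The shares were 46.2% of the SR and 75.0% of the hnRNP genes. Most members lay far above 15 TPM, so those 7493 genes are not matched to them in level. The median log2 change was -0.20 in the hnRNP family and -0.12 in the SR family, beside -0.09 over all tested genes and -0.10 over the abundant ones. In TPM, 17 hnRNP and 6 SR genes had every H182 library below every DMSO library, as did 32.7% of all tested genes and 40.7% of the abundant ones. TPM is a share of a fixed total, so a transcript's fall can hold a fall in its own amount and a rise of others. In a bulk culture, fewer cells with a transcript and less of it per cell cannot be told apart.

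Scaling changed how many members passed. With median-of-ratios scaling, which put the median of all tested genes at 0.00, 3 SR genes (23.1%) and 7 hnRNP genes (35.0%) were called lower, against 6.74% of all tested genes and 8.75% of the abundant ones. Medians were then -0.01 in the SR and -0.09 in the hnRNP family. With quantile normalization, 5 SR and 16 hnRNP genes were called lower, against 10.3% of all tested genes and 13.5% of the abundant ones. Over all genes, 78.0% of calls were lower in TPM, 46.1% with median-of-ratios scaling and 60.2% with quantile normalization. The 10 members called lower under all 3 scalings were SRSF1, SRSF2, SRSF6, HNRNPA0, HNRNPA1, HNRNPA3, HNRNPD, HNRNPDL, HNRNPF and HNRNPUL1. TRA2A was called higher under all 3, as were 5.3% of all tested genes in TPM, 7.9% with median-of-ratios scaling and 6.78% with quantile normalization.

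**Figure D1:**
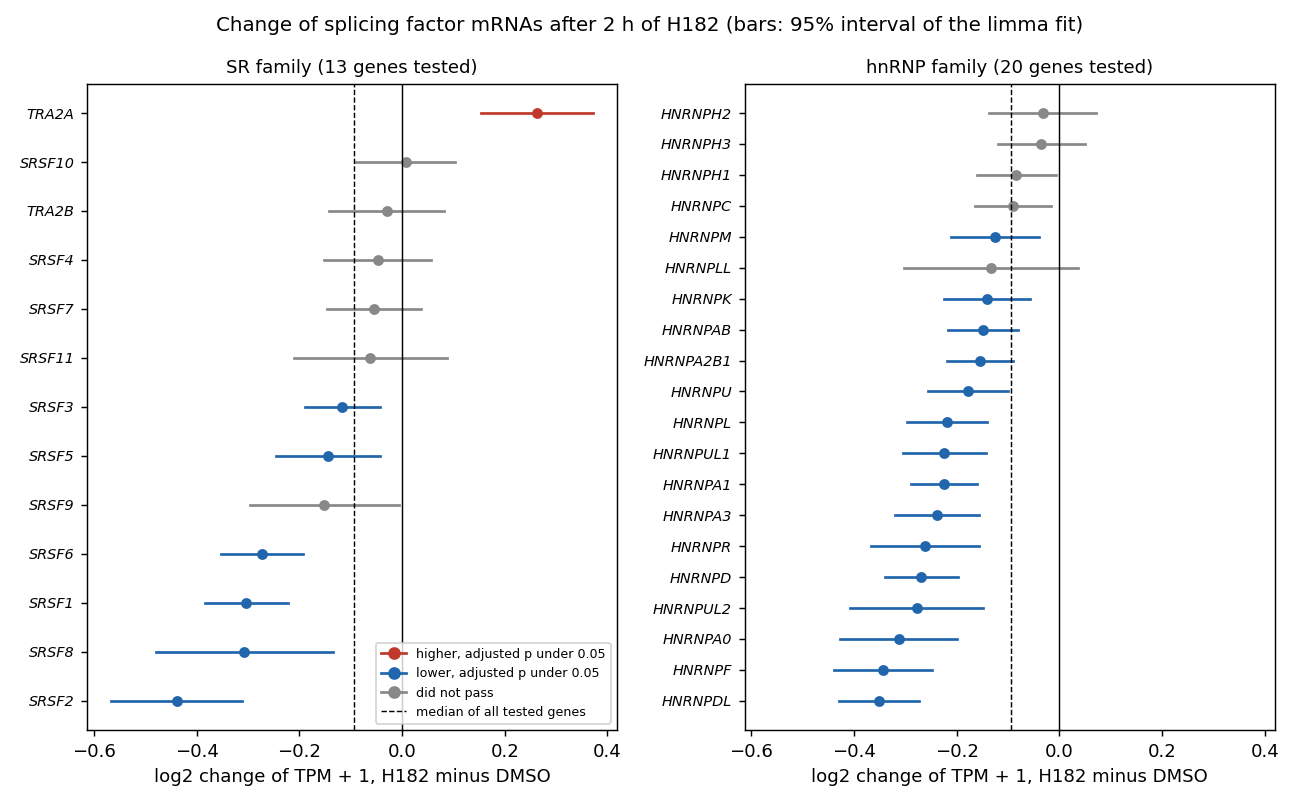
Log2 change of TPM + 1 (x axis, H182 minus DMSO) of each tested SR gene (left) and hnRNP gene (right), with the 95% interval of the limma fit and, dashed, the median of all tested genes at -0.09. TRA2A stands alone at 0.26, SRSF2 is lowest at -0.44, and in TPM all 20 hnRNP estimates lie below 0, among them 5 genes that did not pass.

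TRA2A (ENSG00000164548.10, chromosome 7, 23504780 to 23532041, GRCh38, minus strand) encodes an SR-like activator that binds GAA-rich exon enhancers. It was at 114.42, 116.41 and 116.27 TPM in the H182 libraries, against 91.76, 95.31 and 102.06 TPM in the DMSO libraries. Every H182 library lay above every DMSO library, an order that 8.67% of all tested genes showed. TRA2A rose by 0.26 on the log2 scale (SE 0.049, limma adjusted p = 0.00456), and by 0.37 with median-of-ratios scaling. Its call held without any single library.

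TRA2B, the paralog of TRA2A with the same RNA target, was among the abundant SR genes that did not pass. It had 325.08, 285.32 and 317.86 TPM in H182 and 312.40, 318.76 and 314.81 TPM in DMSO, so the groups overlapped (log2 change -0.03, 95% interval -0.14 to 0.08). The ratio of TRA2A to TRA2B within a library, which a scaling by a single factor per library does not alter but quantile normalization can, was 0.375 ± 0.0292 in H182 and 0.306 ± 0.0163 in DMSO (SD, n = 3 each). Its groups did not overlap, and the two-sided exact permutation p was 0.1, the smallest that 3 against 3 libraries can give. The pairs used for ratios were chosen after the values were seen.

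SRSF2 (ENSG00000161547.14, chromosome 17, 76734115 to 76737374, minus strand), also known as SC35 and a marker of nuclear speckles, had the lowest log2 change of the members. Its level was 334.04, 379.23 and 380.04 TPM in H182 libraries and 487.24, 473.93 and 520.12 TPM in DMSO libraries. H182 replicate 1 was the lowest of the treated libraries, yet even the highest of them lay far under the lowest DMSO library. SRSF2 fell by 0.44 on the log2 scale (SE 0.057, limma adjusted p = 0.000622). Its exons share 1106 bases with MFSD11 on the opposite strand, which averaged 12.6 TPM in H182 and 12.5 TPM in DMSO. How strand was handled in counting is not given in the sources used here.

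SRSF8, an SR gene that arose as a retrocopy of SRSF2, had 15.49, 17.74 and 17.48 TPM in H182 and 20.82, 21.71 and 20.81 TPM in DMSO. Among the tested SR genes it had the lowest level, and its groups did not overlap. It fell by 0.31 (limma adjusted p = 0.0183) in TPM but missed the threshold under median-of-ratios scaling (-0.21, adjusted p = 0.0816) and without DMSO replicate 2 or H182 replicate 1. Reads of near-identical copies may be divided between SRSF2 and SRSF8, so their separate values are uncertain.

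SRSF1 (ENSG00000136450.12, chromosome 17, 58003360 to 58007346, minus strand), the founding SR protein ASF/SF2 and a known proto-oncogene, had 300.61, 305.25 and 307.11 TPM in H182 libraries. In DMSO libraries it had 363.47, 381.31 and 382.57 TPM, all above the treated ones. SRSF1 fell by 0.30 on the log2 scale (SE 0.036, limma adjusted p = 0.000340). A same-strand row, RP11-159D12.5, shares 1890 exon bases with it and averaged 3.72 TPM in H182 and 2.60 TPM in DMSO.

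SRSF6 (ENSG00000124193.14, chromosome 20, 43457928 to 43464247, plus strand), a large SR protein with a pair of RNA recognition motifs, had 195.71, 198.25 and 203.81 TPM in H182 and 239.79, 240.78 and 242.14 TPM in DMSO. Its DMSO libraries were tight (SD 1.18 TPM), and none came near the treated range. SRSF6 fell by 0.27 (SE 0.036, limma adjusted p = 0.000665).

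SRSF3, the smallest SR protein, and SRSF5, first found in rat liver as an insulin-induced factor, passed narrowly in TPM. SRSF3 had 685.80, 667.15 and 679.31 TPM in H182 and 740.18, 748.27 and 714.43 TPM in DMSO, a fall of 0.12 (limma adjusted p = 0.0308). SRSF5 had 372.58, 367.09 and 361.15 TPM in H182 and 384.09, 402.17 and 431.12 TPM in DMSO, a fall of 0.14 (limma adjusted p = 0.0456). The groups of both genes lay apart by small margins. Neither passed with median-of-ratios scaling (-0.01 and -0.04). Without DMSO replicate 2, SRSF3, SRSF5 and SRSF8 all missed the threshold, which left 3 SR genes lower and TRA2A higher. Over all tested genes, leaving out that library also cut lower calls from 2304 to 1407 and higher calls from 651 to 556.

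The other SR genes did not pass in TPM. SRSF9, a small SR protein, had 317.77, 322.57 and 369.62 TPM in H182 and 364.45, 355.40 and 400.74 TPM in DMSO, with replicate 3 high in both groups. Its log2 change was -0.15 (95% interval -0.30 to -0.01, adjusted p = 0.121). It passed without H182 replicate 3 (adjusted p = 0.0251). GATC on the opposite strand, at 43.7 TPM in H182 and 47.9 TPM in DMSO, shares 1729 exon bases with it. SRSF10, which acts as a splicing repressor once dephosphorylated by heat shock, stood at 215 ± 8.63 TPM in H182 and 214 ± 5.92 TPM in DMSO (log2 change 0.01, 95% interval -0.09 to 0.10). SRSF4 (-0.05), SRSF7 (-0.05) and SRSF11 (-0.06) also overlapped between the groups. With median-of-ratios scaling the estimates of SRSF4, SRSF7, SRSF11 and TRA2B were above 0, and none passed.

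**Figure D2:**
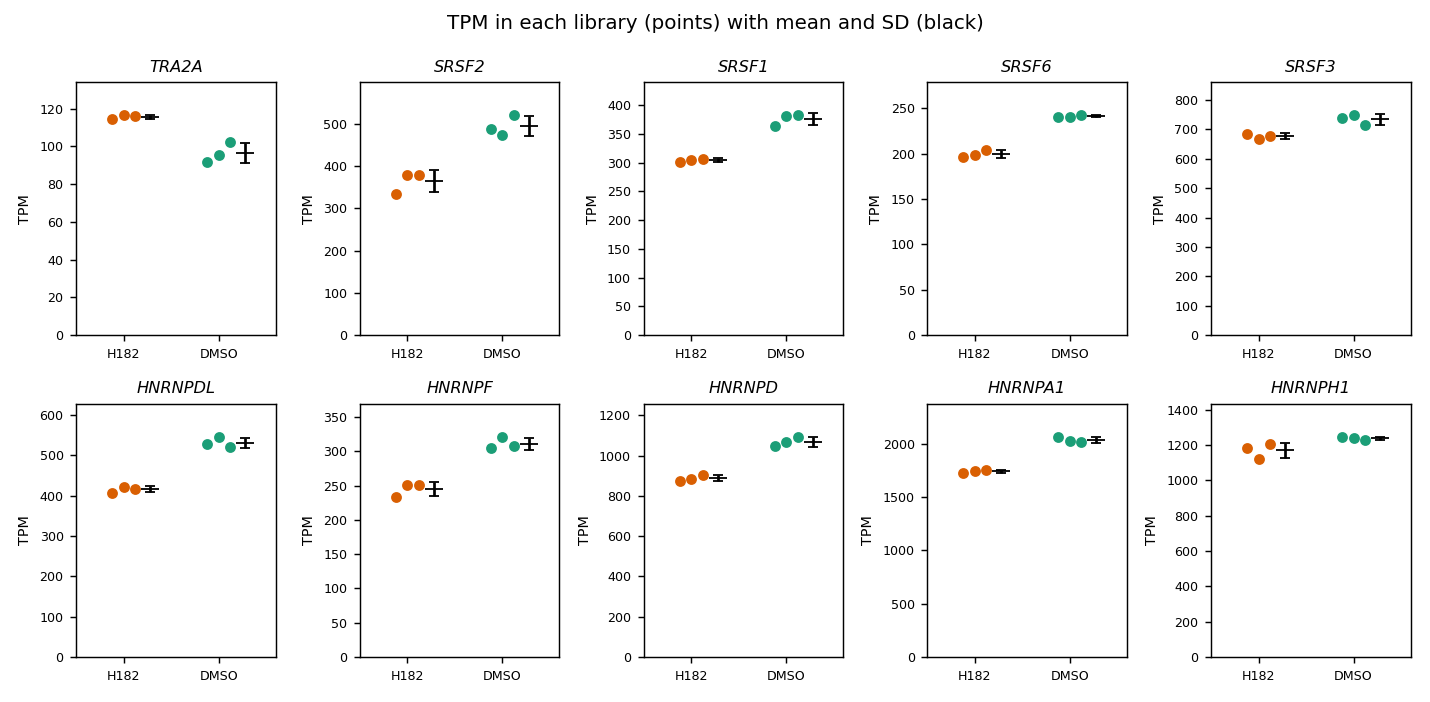
TPM (y axis, from 0) of 10 members in each H182 and DMSO library (points), with the mean and SD of the 3 libraries in black. TRA2A is higher in H182 libraries, at 114.42 to 116.41 TPM, and the 9 other genes are lower there, HNRNPH1 without passing the test in TPM.

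Among hnRNP genes, the neighbours HNRNPD and HNRNPDL both fell. They encode AUF1, a factor that binds AU-rich elements and speeds mRNA decay, and its close relative JKTBP, and both lie on the minus strand of chromosome 4 (82352498 to 82374503 and 82422564 to 82430408). HNRNPDL (ENSG00000152795.17) had 407.36, 422.57 and 417.54 TPM in H182 libraries, against 526.98, 545.40 and 520.21 TPM in DMSO libraries. It fell by 0.35 on the log2 scale (SE 0.035, limma adjusted p = 0.000101), the lowest estimate among the hnRNP genes. HNRNPD had 873.52, 882.12 and 902.41 TPM in H182 and 1045.56, 1065.39 and 1091.62 TPM in DMSO, a fall of 0.27 (limma adjusted p = 0.000363). In neither gene did the groups overlap. The ratio of HNRNPDL to HNRNPD within a library did overlap between the groups. It was 0.4694 ± 0.00858 in H182 and 0.4975 ± 0.01857 in DMSO (two-sided exact permutation p = 0.2).

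HNRNPF and the HNRNPH genes, whose closely related proteins bind runs of guanines, differed in their estimates. HNRNPF (ENSG00000169813.16, chromosome 10, 43385617 to 43409166, minus strand) had 232.87, 251.04 and 250.47 TPM in H182 and 304.72, 320.72 and 306.99 TPM in DMSO. It fell by 0.34 (SE 0.043, limma adjusted p = 0.000470), with the groups well apart. HNRNPH1 had 1181.76, 1120.67 and 1202.16 TPM in H182 and 1244.20, 1239.29 and 1228.57 TPM in DMSO, and did not pass (log2 change -0.08, 95% interval -0.16 to -0.01, adjusted p = 0.109). Its groups came close to each other without overlapping. HNRNPH2 (-0.03) and HNRNPH3 (-0.04) did not pass either, and their groups overlapped. With median-of-ratios scaling the estimates of HNRNPH1, HNRNPH2 and HNRNPH3 were above 0, at 0.02, 0.07 and 0.07, and none passed. The ratio of HNRNPF to HNRNPH1 within a library was 0.210 ± 0.0135 in H182 and 0.251 ± 0.00703 in DMSO (two-sided exact permutation p = 0.1, the smallest possible). HNRNPH2 shares 362 exon bases with the readthrough row RPL36A-HNRNPH2, at 20.2 TPM in H182 and 23.4 TPM in DMSO.

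The A and B group, core hnRNP proteins that package nascent RNA, fell throughout in TPM. HNRNPA1 had the highest level of all members, with 1727.23, 1744.55 and 1751.52 TPM in H182 and 2061.96, 2029.08 and 2011.66 TPM in DMSO. It fell by 0.22 (SE 0.028, limma adjusted p = 0.000539), and the narrow ranges did not meet. The retrogene HNRNPA1L2, which could take some of its reads, averaged 3.77 TPM in H182 and 3.68 TPM in DMSO. HNRNPA2B1, a reader of sorting signals in mRNA and small RNA, had 1447.69, 1434.65 and 1439.06 TPM in H182 and 1585.87, 1601.33 and 1622.01 TPM in DMSO. Its fall of 0.15 (limma adjusted p = 0.00429) was lost with median-of-ratios scaling (-0.05, adjusted p = 0.358). HNRNPA2B1 shares 368 exon bases with CBX3 on the opposite strand, at 270 TPM in H182 and 317 TPM in DMSO.

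HNRNPA3, a relative of HNRNPA1, had 370.84, 357.56 and 379.21 TPM in H182 and 437.16, 427.13 and 442.20 TPM in DMSO, a fall of 0.24 (limma adjusted p = 0.00157). HNRNPA0, a single-exon gene whose protein binds AU-rich elements, had 52.29, 56.16 and 54.77 TPM in H182 and 65.66, 68.55 and 69.20 TPM in DMSO, a fall of 0.31 (limma adjusted p = 0.00229). Both had every treated library below every control library, and both passed with median-of-ratios scaling as well. HNRNPAB, a factor related to HNRNPD, fell by 0.15 in TPM (adjusted p = 0.00768) but not with that scaling (-0.04).

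HNRNPC, which forms tetramers that measure the length of nascent RNA, had 896.82, 886.50 and 888.80 TPM in H182 and 914.99, 965.63 and 965.40 TPM in DMSO. Its groups did not overlap, but DMSO replicate 1 lay close to the treated libraries and the gene did not pass in TPM (log2 change -0.09, adjusted p = 0.0770). With quantile normalization it passed as lower (-0.15, adjusted p = 0.0105), and with median-of-ratios scaling its estimate was 0.01. HNRNPL, which binds CA repeats, had 383.03, 389.78 and 387.33 TPM in H182 and 438.51, 462.92 and 449.02 TPM in DMSO. It fell by 0.22 (limma adjusted p = 0.00191) in TPM and missed the threshold with median-of-ratios scaling (-0.11, adjusted p = 0.0527). A same-strand row, AC104534.3, shares 561 of its exon bases and averaged 0.163 TPM in H182 and 3.14 TPM in DMSO. The paralog of HNRNPL, HNRNPLL, known for regulating CD45 splicing in T cells, was at 34.0 ± 0.313 TPM in H182 and 37.6 ± 3.80 TPM in DMSO and did not pass (-0.13).

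HNRNPU, the scaffold protein SAF-A that ties RNA to chromatin, and its relatives HNRNPUL1 and HNRNPUL2 also fell in TPM. HNRNPUL1 had 310.74, 324.29 and 330.55 TPM in H182 and 375.83, 379.20 and 372.72 TPM in DMSO, a fall of 0.22 (limma adjusted p = 0.00219). HNRNPU averaged 586 ± 8.41 TPM in H182 and 663 ± 19.5 TPM in DMSO, and HNRNPUL2 47.7 ± 2.48 TPM in H182 and 58.0 ± 2.15 TPM in DMSO. Each of the 3 genes had separate groups, but with median-of-ratios scaling HNRNPU (-0.07) and HNRNPUL2 (-0.18) missed the threshold. Of HNRNPUL2's exon bases, 2391 are shared with the readthrough row HNRNPUL2-BSCL2, so its own value is uncertain. HNRNPU shares 3502 exon bases with COX20 on the opposite strand, at 101 TPM in H182 and 110 TPM in DMSO.

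HNRNPR, a close relative of SYNCRIP, had 312.25, 314.14 and 312.79 TPM in H182 and 377.11, 399.41 and 351.86 TPM in DMSO. The treated libraries were tight (SD 0.974 TPM), whereas the DMSO libraries spread more widely (SD 23.8 TPM) without reaching them. HNRNPR fell by 0.26 (limma adjusted p = 0.00366) in TPM and missed the threshold with median-of-ratios scaling (-0.16, adjusted p = 0.0547). HNRNPK, a poly-C binding protein, and HNRNPM, which binds GU-rich RNA, fell by 0.14 and 0.13 in TPM and did not pass with that scaling. Both calls also depended on single libraries: without DMSO replicate 2, for example, neither passed.

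Summed over a family, the SR genes held 0.343% of all TPM in H182 and 0.382% in DMSO (3430 ± 59.7 and 3816 ± 67.9 TPM). The hnRNP genes held 1.14% in H182 and 1.29% in DMSO (11356 ± 112 and 12860 ± 89.5 TPM). Both sums were lower in every treated library than in any control library. These sums are in TPM and were not rescaled. The median-of-ratios factors were 0.9485 to 0.9851 in H182 and 1.031 to 1.045 in DMSO, so dividing by them would narrow both differences. Within the SR family, levels in DMSO ran from 21.1 TPM (SRSF8) to 734 TPM (SRSF3) among tested genes. The hnRNP family ran from 37.6 TPM (HNRNPLL) to 2034 TPM (HNRNPA1). The change was not ordered by level: across the 33 tested members, Spearman's rho between the DMSO level and the log2 change was -0.06, a description of genes that share the same 6 libraries. With the length of the gene in the genome rho was 0.37.

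**Figure D3:**
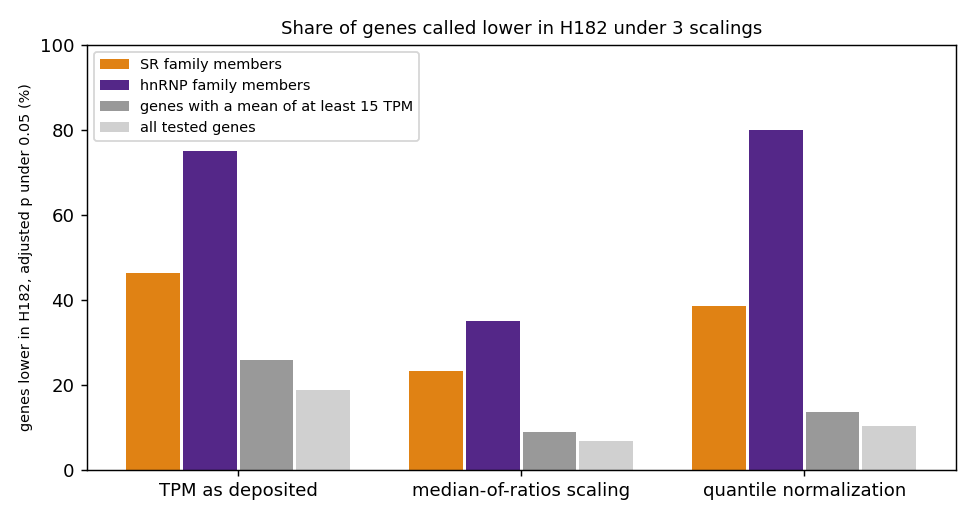
Share of genes called lower in H182 (y axis, percent, limma adjusted p under 0.05) among the 13 tested SR genes, the 20 hnRNP genes, the 7493 genes whose mean reached 15 TPM and all tested genes, under 3 scalings. In the hnRNP family the share is 75.0% in TPM, 35.0% with median-of-ratios scaling and 80.0% with quantile normalization, and that of all tested genes is 18.7%, 6.74% and 10.3%.

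**Figure D4:**
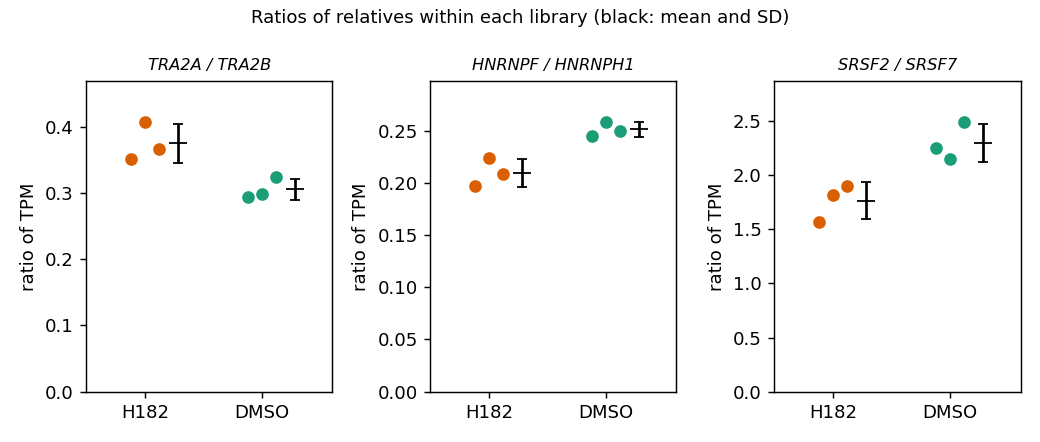
Ratio of TPM between relatives within each library (y axis, from 0), with mean and SD in black, for TRA2A to TRA2B, HNRNPF to HNRNPH1 and SRSF2 to SRSF7. TRA2A to TRA2B is higher in H182 libraries, and the other ratios are lower there, for example 1.76 ± 0.170 in H182 and 2.30 ± 0.177 in DMSO for SRSF2 to SRSF7.

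The families also differ in how their transcripts are annotated. In GENCODE 29, all 14 SR genes have at least 1 transcript marked as a target of nonsense-mediated decay, as do 13 of the 20 hnRNP genes (65.0%) and 44.2% of tested protein-coding genes. Transcripts with a retained intron are listed for 11 SR genes, 14 hnRNP genes and 58.1% of tested protein-coding genes. Genes of both families are short, with a median span of 13686 bases for SR and 18284 bases for hnRNP genes, against 33203 bases for tested protein-coding genes.

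Stretches of DNA are given for the 4 genes that fell under all 3 scalings and have a long enough stretch. HNRNPH1, which did not pass, is shown too. The stretches come from the 250 bases upstream of the RefSeq start and are written 5′ to 3′ on the gene's strand (GRCh38.p14). Each stretch leaves out bases that any GENCODE 29 exon covers, and only stretches of at least 150 bases are shown. Capitals mark CCAAT boxes (CCAAT) and SP1 motifs (GGGCGG) on either strand, which do not overlap each other in these stretches. HNRNPUL1, which fell, and HNRNPH1, which did not pass, hold neither motif in the stretches shown. In its full 250 bases HNRNPUL1 does have GGGCGG, in the part left out, whereas HNRNPH1 has neither motif. HNRNPH1 is not typical here. The other hnRNP genes that did not pass in TPM (HNRNPC, HNRNPH2, HNRNPH3 and HNRNPLL) have both motifs in their 250 bases. A link between these motifs and the change was not tested. HNRNPF lies on the minus strand at chr10:43408883-43409089, HNRNPA0 on the minus strand at chr5:137754377-137754613 and SRSF6 on the plus strand at chr20:43457646-43457895. HNRNPUL1 lies on the plus strand at chr19:41262307-41262495. The GENCODE 29 span of HNRNPF reaches to 43409166, beyond its RefSeq start. Its stretch therefore lies inside that span, outside the exons. HNRNPH1, which did not pass, lies on the minus strand at chr5:179634785-179635034.
HNRNPF: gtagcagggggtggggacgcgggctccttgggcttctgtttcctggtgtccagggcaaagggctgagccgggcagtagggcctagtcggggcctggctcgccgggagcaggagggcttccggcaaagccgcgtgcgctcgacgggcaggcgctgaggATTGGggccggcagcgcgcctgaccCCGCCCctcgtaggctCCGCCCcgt
HNRNPA0: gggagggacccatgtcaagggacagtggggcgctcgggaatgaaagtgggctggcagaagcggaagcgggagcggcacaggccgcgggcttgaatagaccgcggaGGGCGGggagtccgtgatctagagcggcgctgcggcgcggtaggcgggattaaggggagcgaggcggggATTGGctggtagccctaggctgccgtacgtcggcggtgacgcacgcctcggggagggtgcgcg
SRSF6: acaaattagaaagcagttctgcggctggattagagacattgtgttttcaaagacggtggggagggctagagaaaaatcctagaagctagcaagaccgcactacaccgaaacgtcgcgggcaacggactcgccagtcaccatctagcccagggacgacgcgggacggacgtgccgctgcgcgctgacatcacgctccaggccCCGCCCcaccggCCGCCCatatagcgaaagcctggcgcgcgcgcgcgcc
HNRNPUL1: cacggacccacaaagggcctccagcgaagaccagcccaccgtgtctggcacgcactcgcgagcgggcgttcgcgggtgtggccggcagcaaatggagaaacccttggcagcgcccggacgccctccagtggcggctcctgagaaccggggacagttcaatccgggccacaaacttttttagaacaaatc
HNRNPH1: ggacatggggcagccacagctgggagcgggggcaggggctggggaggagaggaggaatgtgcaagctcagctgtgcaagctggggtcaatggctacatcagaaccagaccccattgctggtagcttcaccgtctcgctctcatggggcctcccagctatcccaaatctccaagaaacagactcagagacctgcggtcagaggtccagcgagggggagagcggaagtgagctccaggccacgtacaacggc

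Promoters of 31 of the 34 members matched the RefSeq table, all but those of HNRNPA1, SRSF2 and TRA2A. A CCAAT box lay within 250 bases upstream of 13 of 19 hnRNP genes and 2 of 12 SR genes, against 9021 of the 27305 promoters in the table. GGGCGG was found before 15 of 19 hnRNP genes and 5 of 12 SR genes, against 42.3% of all promoters. The heat shock element core GAANNTTC, searched on both strands, was present before HNRNPA2B1, HNRNPC and SRSF8, and in 5.85% of all promoters. The median GC content of the windows was 65.6% for the members and 58.0% for all promoters. The median count of CG pairs was 25 and 11. All promoters here include those of genes that were not tested, so they are an unlike background for expressed genes. A match of letters is a description and not a binding site.

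Other splicing genes were read from lists chosen with earlier results of these data known. Proteins of the hnRNP type that carry other names fell in 7 of 12 tested cases and rose in none, with a median log2 change of -0.17, beside 18.7% of all tested genes lower and 5.3% higher in TPM. With median-of-ratios scaling 2 fell and none rose, beside 6.74% of all tested genes lower and 7.9% higher. RBMX, or hnRNP G, was at 249.04, 277.89 and 269.39 TPM in H182 and 310.84, 334.10 and 327.15 TPM in DMSO. SYNCRIP, or hnRNP Q, averaged 161 ± 8.34 TPM in H182 and 198 ± 10.2 TPM in DMSO. Both fell (limma adjusted p = 0.00287 and 0.00351) and passed with median-of-ratios scaling too. The poly-C binding genes PCBP1 (-0.18) and PCBP2 (-0.17) fell in TPM and missed the threshold with that scaling.

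SR-related proteins, which carry the arginine and serine tail but differ in their RNA-binding parts, fell in 10 of 27 cases and rose in 1 in TPM, with a median log2 change of -0.15 (18.7% of all tested genes were lower and 5.3% higher). With median-of-ratios scaling 5 fell and 2 rose (6.74% of all tested genes were lower and 7.9% higher). BCLAF1, a speckle protein tied to splicing and mRNA export, fell by 0.39, with 104.85, 100.88 and 101.11 TPM in H182 and 135.86, 133.51 and 134.88 TPM in DMSO (limma adjusted p = 0.000124). The coactivator SRRM1 fell by 0.38, THRAP3, the partner of BCLAF1, by 0.35, and ACIN1, of the exon junction periphery, by 0.29. These 4 genes also passed with median-of-ratios scaling. RBM39, a U2AF-like cofactor named after its value was seen, was the member that rose in TPM (0.25, adjusted p = 0.0170).

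Of 45 core spliceosome genes tested, 19 fell and none rose in TPM, with a median log2 change of -0.10, beside -0.09 over all tested genes, of which 18.7% were lower. With median-of-ratios scaling 2 fell and none rose, beside 6.74% of all tested genes lower. The helicase genes DDX23 (-0.38) and DDX46 (-0.27) passed with both scalings, while SNRNP40 of the U5 snRNP (-0.25) and SNRPA1 of the U2 snRNP (-0.22) passed in TPM and not with median-of-ratios scaling. Of 23 other splicing regulators, 8 fell and 1, RBM5 (0.28, named after its value was seen), rose in TPM, beside 18.7% of all tested genes lower and 5.3% higher. With median-of-ratios scaling 2 of these regulators fell and 5 rose, beside 6.74% and 7.9% of all tested genes. TARDBP, the RNA-binding protein TDP-43, had 177.57, 175.26 and 177.53 TPM in H182 and 230.81, 244.34 and 243.49 TPM in DMSO, a fall of 0.44 (limma adjusted p = 4.64e-05). KHDRBS1, or Sam68, fell by 0.24 and passed with both, whereas MBNL1 (-0.30) and QKI (-0.21) passed in TPM and not with median-of-ratios scaling.

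Most genes of nonsense-mediated decay and the exon junction complex did not pass: of 15 tested, 1 rose and 1 fell, under all 3 scalings, beside 5.3% of all tested genes higher and 18.7% lower in TPM. EIF4A3, the helicase that anchors the exon junction complex, had 325.70, 316.16 and 338.74 TPM in H182 and 248.12, 250.41 and 260.42 TPM in DMSO. It rose by 0.37 on the log2 scale (limma adjusted p = 0.000194), and its groups were well apart. SMG8, a regulator of the kinase SMG1, fell by 0.37, with 13.55, 14.77 and 15.15 TPM in H182 and 18.93, 18.80 and 19.30 TPM in DMSO (limma adjusted p = 0.00683).

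Library facts that bear on these results are few. Libraries of a group correlated at r = 0.9928 to 0.9942 across tested genes, against 0.9787 to 0.9806 for an H182 and a DMSO library, and genes are not independent replicates. TPM keeps no record of reads, so depth was unknown. Markers of the line were present, from 97.7 TPM (EGFR) to 3585 TPM (VIM) in H182 and from 114 TPM (EGFR) to 4026 TPM (VIM) in DMSO. All 5 of them (VIM, CD44, EGFR, AXL and CAV1) were lower in TPM, and 3 passed with median-of-ratios scaling. Of all tested genes, 18.7% were called lower in TPM and 6.74% with that scaling. ESR1 and PGR were at most 0.06 TPM in any library, and CDH1 was at most 0.28 TPM. The other genes listed as low in this line were not near 0. ERBB2 reached 29.4 TPM and EPCAM 16.15 TPM. Among markers of other cell types, COL1A1 averaged 7.59 TPM in H182 and 7.24 TPM in DMSO without passing, and PTPRC, CD3E, PECAM1, VWF and PDGFRB were at most 1.90 TPM in any library.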

How the data were processed

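Members and gene lists were chosen with earlier results of these data known. The authors deposited 1 table of TPM per gene and library for 6 libraries, with every column summing to 1000000 within 1 TPM. The build GRCh38, STAR 2.5.0 and RSEM 1.2.25 are named per the submitters' processing notes; the annotation and the strand setting are not given in the sources used here. Of 27567 rows, 92 spike-in rows, listed at 0 throughout, and 24 second rows of genes on X and Y were left out, which kept 999722 to 999751 TPM per library.

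H182 was compared with DMSO on log2(TPM + 1), so that changes of low genes are understated, for the 12294 genes whose mean reached 1 TPM. The two-sided test was limma 3.58.1 in R 4.3.3, whose variance prior followed mean expression. P-values were adjusted over all 12294 genes by the Benjamini-Hochberg method and called at 0.05. Every adjusted p-value comes from limma, and rose and fell are used of genes that passed. The test was tried on simulated data first, with changed genes drawn from all 12294. It recovered 23.2% of log2 changes of 0.25 and 58.8% of those of 0.5, and 3.46% of calls were false. Among all tested genes, one that did not pass can therefore still have changed by such amounts. These recovery rates are not specific to the members, for which the 95% intervals of the limma fit in TPM are narrower guides. Of the tested members that did not pass, only SRSF9 (-0.30 to -0.01) and HNRNPLL (-0.30 to 0.04) had intervals that included a change of 0.25 in size. None of their intervals included a change of 0.5 in size. An error after ± is the SD of 3 libraries. Values in every library are given for up to 10 members per family that passed, by lowest p, and for the 2 most abundant in each family that did not. Of each list, up to 4 members with the lowest p among those passing are named. Alternatives covered the pseudocount, the filter, scaling, the trend, the threshold, a replicate block and leaving out each library; scaling to the members was chosen after seeing the data. Positions and transcript kinds come from GENCODE 29, and promoters from RefSeq (GRCh38.p14).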

Additional observations from a re-analysis of the deposited data

How the results depend on the processing

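With median-of-ratios scaling 4 SR and 7 hnRNP genes were called, in place of 7 and 15, the family medians were -0.012 and -0.094, and 1800 genes were called over all, in place of 2955; 11 members lost their call. At a threshold of 0.01, 4 SR genes and 1436 genes over all were called. Scaled to the mean of the 33 tested members, 4 SR and 3 hnRNP genes were called. SRSF1, SRSF2, HNRNPDL and HNRNPF were lower, and TRA2A, SRSF10 and HNRNPH3 higher (HNRNPH3 0.13 against -0.04 in TPM). Calls over all tested genes were not counted under this scaling, so these counts have no background. That scaling sets the members' mean change to 0 by construction, so the estimates of SRSF3 (0.052), SRSF5 (0.024), HNRNPA2B1 (0.014), HNRNPAB (0.019), HNRNPK (0.026) and HNRNPM (0.042) reversed, without passing. Leaving out 1 library at a time gave 4 to 6 SR genes, 13 to 14 hnRNP genes and 1963 to 2757 genes over all. The family medians were then -0.13 to -0.10 (SR) and -0.21 to -0.18 (hnRNP). The lowest SR count and the lowest count over all genes were those without DMSO replicate 2. The other alternatives (pseudocounts of 0.1 and 5, no filter, a filter of 5 TPM, quantile normalization and no trend) left each count of calls within 1.5 times; without the trend 10 hnRNP genes passed. Same-numbered libraries showed correlations of deviations of -0.0359 to 0.00245, and no H182 library correlated best with its own number. Across all pairs of an H182 and a DMSO library the values ran from -0.0359 to 0.0281. No shared effect of a number was visible, but values this small cannot tell whether same-numbered libraries were paired. With the replicate block 7 SR genes, 15 hnRNP genes and 2684 genes over all were called; SRSF5 lost its call (adjusted p = 0.0621) and SRSF9 gained one (0.0248). Without read counts, the depth behind each TPM stays unknown.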
